A study of Mus musculus with 2 samples.

Results

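Immediate early genes are the genes that cells transcribe first after a stimulus, without needing new protein. Most encode transcription factors that switch on a later wave of genes, and their mRNAs are short-lived. The 10 genes described here were taken as named rows of both count tables (Fos, Fosb, Jun, Junb, Egr1, Atf3, Ier2, Ier3, Zfp36 and Nr4a1), so the rule used no measured value. They are 10 of the 21722 genes listed in either library, and all 10 were listed in both. In liver, this family is known to respond to injury and regeneration, and also to the enzymatic release of cells from tissue.

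Non-parenchymal cells (NPCs) came from the livers of 2 male C57BL/6 mice that were 8 weeks old at the start. The control mouse received intraperitoneal olive oil 2 times a week for 6 weeks ("normal" below). The other received the hepatotoxin carbon tetrachloride (CCl4, at 15% in olive oil, dosed at 0.6 µl/g) on the same schedule, and cells were taken 48 h after the last injection ("fibrosis"). Both livers were perfused with collagenase for 5 min and digested for 30 min at 37 °C, and hepatocytes were depleted by low-speed spins. Each mouse gave 1 10x Chromium 3′ library, so every comparison of conditions sets 1 mouse against 1 other, no test was possible, and the intervals given below cover counting error only. No sample of undissociated tissue was analysed here, so the share of these transcripts made during digestion was not tested.

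The normal library held 8130 cells with 44062632 unique molecular identifiers (UMIs, 1 per captured mRNA molecule) and the fibrosis library 6437 cells with 53288463. After the filter on mitochondrial share, 7471 and 6132 cells were left, and 15 cell barcodes occurred in both libraries. Cells were clustered with these genes held out of the variable genes, and clusters were named by marker genes, which gave 17 classes with at least 30 cells in each library. The level of transcripts of other cell types within a class differed between the libraries. The 16 hepatocyte markers summed to 202 UMIs per 10000 in normal and 15.8 in fibrosis liver sinusoidal endothelial cells (LSEC-like), and the 18 endothelial markers in B-cell-like cells summed to 19.6 and 40.8. Clusters of shallow droplets with hepatocyte transcripts (1012 normal and 779 fibrosis, median 1442.5 and 1167 UMIs) held the 10 genes at 32.1 and 74.7 UMIs per 10000. In the fibrosis library, 56 of the 162 plasmacytoid dendritic cells (pDC-like) formed a sub-cluster with endothelial markers at 54.4% of the LSEC-like level, and 73 of the 192 neutrophil-like cells one at 25.7%. Hepatocyte-like and plasma-cell-like cells differed more than 3 times in median UMIs between the libraries (7815 and 2054.5, and 12945.5 and 1347), and their part in the values of these classes was not tested. LSEC-like cells held all 18 endothelial markers in both libraries, at 324 and 288 UMIs per 10000.

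Promoter sequences from RefSeq (GRCm38.p6, 250 bases before to 50 after the start) matched 8 of the 10 by symbol, all but Egr1 and Ier2. Of these, 3 are shown because they carry the motifs that the family is known for. The core of the cAMP response element, TGACG on either strand, was present in 5 of the 8 (Fos, Fosb, Junb, Atf3 and Nr4a1) and in 21.0% of 27025 promoters of the same length. None of the 8 held the full palindrome TGACGTCA, which contains that core and is present in 1.88% of promoters. The AP-1 site, TGA and TCA with any base between them, matched in 7.93% of promoters, was in none of the 8 either. The CArG box, bound by serum response factor, was matched in 1 of the 8, Zfp36, against 1.57% of promoters. Sites further from the start, and any in Egr1 and Ier2, were not searched. TATAAA was in 2 of the 8 (14.2% of promoters), and in Fos it lay 33 bases before the start. All motifs were searched on both strands, and a match describes only the letters in this window. The 250 bases before each start are printed 5′ to 3′ on the gene's strand, with capitals marking TGACG on either strand, the TATA box of Fos and the CArG box of Zfp36.
Fos promoter, chr12:85473640-85473889, plus strand: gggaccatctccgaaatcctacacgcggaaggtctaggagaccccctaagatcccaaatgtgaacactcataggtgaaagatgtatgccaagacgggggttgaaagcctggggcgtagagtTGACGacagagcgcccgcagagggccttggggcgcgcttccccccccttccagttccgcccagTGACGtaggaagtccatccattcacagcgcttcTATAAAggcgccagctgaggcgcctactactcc
Nr4a1 promoter, chr15:101266596-101266845, plus strand: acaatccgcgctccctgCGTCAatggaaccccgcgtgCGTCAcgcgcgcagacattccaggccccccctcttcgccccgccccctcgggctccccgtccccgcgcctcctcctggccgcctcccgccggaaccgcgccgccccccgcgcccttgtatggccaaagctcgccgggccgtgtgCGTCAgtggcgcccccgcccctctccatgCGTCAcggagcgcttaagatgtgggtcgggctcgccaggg
Zfp36 promoter, chr7:28379229-28379478, minus strand: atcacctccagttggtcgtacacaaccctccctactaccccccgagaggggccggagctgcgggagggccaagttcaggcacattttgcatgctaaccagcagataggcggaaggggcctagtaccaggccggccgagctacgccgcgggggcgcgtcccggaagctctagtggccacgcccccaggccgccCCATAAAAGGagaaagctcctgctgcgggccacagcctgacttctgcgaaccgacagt

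Short mRNA life in this family is linked to AU-rich elements in the 3′ untranslated region (UTR), which the Zfp36 protein itself binds to promote decay. The pentamer ATTTA occurred in the 3′ UTR of 9 of the 10 genes (all but Ier2) and in 63.4% of 20467 protein-coding genes. The longer form TATTTAT, which contains it, occurred in 6 (Fos, Fosb, Jun, Atf3, Ier3 and Zfp36) against 26.4%. The nonamer TTATTTATT occurred in 2 against 7.21%, at these sites (capitals mark the nonamer).
Fos, base 655 after the stop codon: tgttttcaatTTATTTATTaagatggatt
Zfp36, base 589 after the stop codon: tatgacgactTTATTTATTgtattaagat

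Most of the 10 genes are compact. In the GENCODE annotation of GRCm38, Jun (chr4:95049034-95052222, minus strand), Junb (chr8:84974484-84978718) and Ier2 (chr8:84661331-84662852) have main transcripts of 1 exon. Fos spans chr12:85473890-85477273 in 4 exons, Fosb chr7:19302696-19310051 in 4, Zfp36 chr7:28376784-28380253 in 2, Ier3 chr17:35821684-35822923 in 2 and Egr1 chr18:34859823-34864984 in 2. Atf3 (chr1:191170296-191218039, 4 exons) and Nr4a1 (chr15:101254269-101274795, 8 exons) are the longer loci. The library chemistry reads the 3′ end, so a UMI does not scale with transcript length.

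Over all cells kept, the 10 genes summed to 57.8 UMIs per 10000 UMIs in normal liver and 67.2 in fibrosis. The level differed more between cell classes than between the 2 mice. Among named classes with at least 30 cells, the highest was 6.46 times the lowest in normal liver. The highest and lowest levels given below for single genes are over these classes too. In normal liver the sum in these classes ran from 17.8 UMIs per 10000 (95% interval 17.1 to 18.5) in erythroid-like cells and 20.4 in plasma-cell-like cells to 115 (112 to 118) in neutrophil-like cells. In fibrosis the sum in classes with at least 30 cells ran from 24.1 in hepatocyte-like to 122 (119 to 126) in neutrophil-like cells. Without the 73 fibrosis cells that carried endothelial markers, neutrophil-like cells held 129.9, and their ratio to normal was 1.13 in place of 1.07. Vessel endothelium stood second in both, at 103 and 116 UMIs per 10000 in portal-vessel cells, and central-vein cells held 80.7 and 90.6. LSEC-like cells lay lower, at 59.6 and 77.4. Of the 17 pairs of neighbours in the normal order, 6 had overlapping intervals, among them B-cell-like (60.1) and LSEC-like, and of the 18 pairs in fibrosis 8 overlapped.

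**Figure D1:**
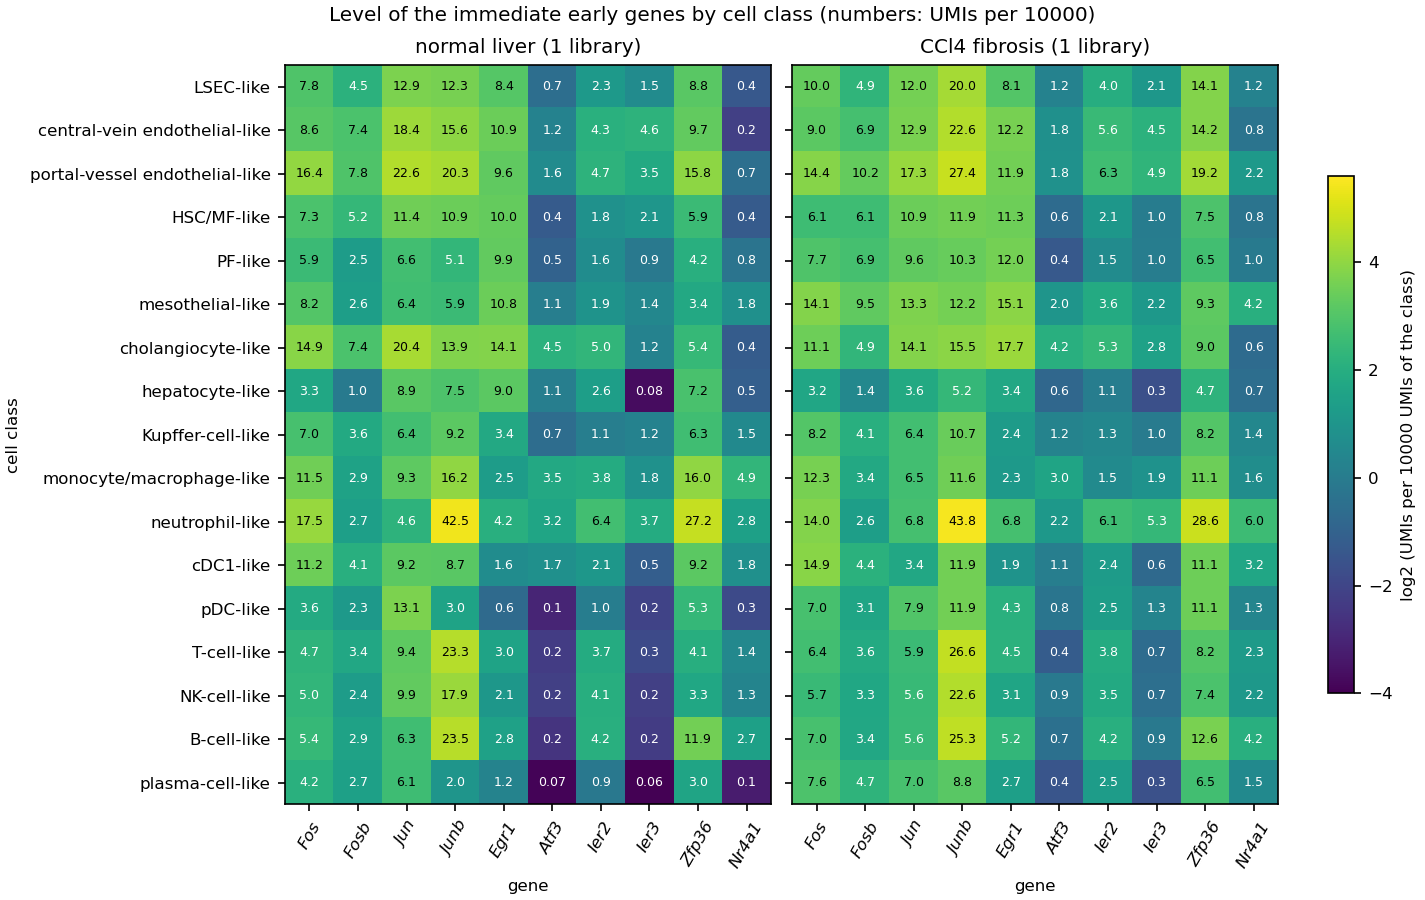
Level of each of the 10 genes (columns) in the 17 cell classes found in both libraries (rows), as UMIs per 10000 UMIs of the class, for the normal (left) and fibrosis (right) library, on a log2 colour scale with the value printed in each cell. Junb is highest in neutrophil-like cells in both (42.5 and 43.8), and Egr1 is highest in cholangiocyte-like cells (14.1 and 17.7).

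The subunits of AP-1, the dimer of Fos and Jun family proteins that drives many stimulus-induced genes, differed in the classes that held most of them. Fos was highest in neutrophil-like (17.5), portal-vessel endothelial-like (16.4) and cholangiocyte-like cells (14.9) in normal liver, and in type 1 conventional dendritic cells (cDC1-like, 14.9) in fibrosis. Its partner Jun led in portal-vessel endothelial-like cells in both libraries (22.6 and 17.3 UMIs per 10000) and was lowest in erythroid-like (3.07) and neutrophil-like cells (4.57) in normal liver and in cDC1-like (3.41) and hepatocyte-like cells (3.56) in fibrosis. Junb, a subunit that can restrain Jun, was highest in neutrophil-like cells (42.5 and 43.8), with 23.3 and 26.6 in T-cell-like, 23.5 and 25.3 in B-cell-like, 20.3 and 27.4 in portal-vessel endothelial-like and 12.3 and 19.999 in LSEC-like cells. Among the other leukocytes Junb ranged widely, with 17.9 and 22.6 in NK-cell-like, 16.2 and 11.6 in monocyte/macrophage-like, 2.03 and 8.81 in plasma-cell-like, 3.00 and 11.9 in pDC-like and 9.16 and 10.7 in Kupffer-cell-like cells. Fosb, the Fos paralog that persists longer after a stimulus, was highest in portal-vessel endothelial-like cells (7.81 and 10.2) and lowest in hepatocyte-like cells (0.966 and 1.39).

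Egr1, a zinc-finger factor induced by growth factors and shear, separated structural cells from leukocytes. In normal liver all endothelial, mesenchymal, biliary and hepatocyte classes held between 8.37 and 14.1 UMIs per 10000, and every leukocyte class held 4.19 or less. In fibrosis the same structural classes other than hepatocyte-like cells held 8.08 to 17.7, and the leukocyte classes 6.81 or less. Hepatocyte-like cells held Egr1 at 8.96 in normal and 3.42 in fibrosis.

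Atf3, a stress-responsive repressor, ranged widely: 4.53 UMIs per 10000 in normal cholangiocyte-like, 3.46 in monocyte/macrophage-like and 3.15 in neutrophil-like cells, against 0.204 in T-cell-like and 0.168 in B-cell-like cells. Between them lay classes such as cDC1-like (1.75) and portal-vessel endothelial-like cells (1.56). Its median over the ranked classes was 0.684 in normal and 1.20 in fibrosis. In fibrosis cholangiocyte-like and monocyte/macrophage-like cells held 4.19 and 3.01, and type 2 dendritic cells (cDC2-like, named in fibrosis only) held 4.48. Nr4a1, the orphan nuclear receptor required for patrolling monocytes, peaked at 4.93 in normal monocyte/macrophage-like cells and at 11.8 (10.8 to 12.9) in the patrolling-monocyte-like cells that were named in fibrosis only. It was low in LSEC-like (0.389 and 1.19) and central-vein endothelial-like cells (0.219 and 0.818). In normal liver, the highest level of Nr4a1 outside the myeloid classes was that of B-cell-like cells (2.73).

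Zfp36 (tristetraprolin), which limits cytokine mRNAs, was highest in neutrophil-like cells (27.2 and 28.6) and stood at 16.0 and 11.1 in monocyte/macrophage-like cells. Ier3, a regulator of survival, was highest in central-vein (4.58 and 4.55), neutrophil-like (3.73 and 5.30) and portal-vessel cells (3.55 and 4.92), and was scarcest in normal plasma-cell-like cells (0.0570, from 6 UMIs). Ier2 ranged less, from 0.859 in erythroid-like to 6.44 in neutrophil-like cells of normal liver. The ratio of the highest to the lowest class was 7.50 for Ier2, 7.97 for Fos and 7.36 for Jun in normal liver, against 80.3 for Ier3 and 68.2 for Atf3, whose lowest classes rest on 6 and 7 UMIs.

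The profiles across the 17 classes were compared between members as Pearson correlations of log2 levels, a description in which all classes of a library share its depth and its free RNA. Junb and Ier2 had r = 0.886 in normal and 0.848 in fibrosis. Fos and Atf3 had r = 0.821 and 0.671, and Jun and Egr1 0.318 and 0.848. Jun and Nr4a1 had the lowest r of all pairs, at -0.456 and -0.229, and whether these differ from 0 was not tested. The profile of a gene in one library against the other had r between 0.529 (Jun) and 0.881 (Ier3).

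In LSEC-like cells, 1536 normal and 1105 fibrosis cells, the summed level was 59.6 UMIs per 10000 in normal and 77.4 in fibrosis, a ratio of 1.30 (1.28 to 1.31). In the same cells Kupffer cell markers were at 7.40 and 15.9 UMIs per 10000, HSC/MF markers at 3.30 and 8.94 and cycling markers at 0.878 and 2.24, and their part in the difference was not tested. Nr4a1 differed most, from 0.389 to 1.19 (ratio 3.05, 2.69 to 3.45), and in the shallow droplets it went from 0.673 to 2.18 (3.24, 2.64 to 4.01). The part of transcripts from other cells in the LSEC-like value was not tested. Nr4a1 was the only 1 of the 10 at or over 2 times in LSEC-like cells, a size reached upward by 3.71% of the 2346 genes with at least 1 UMI per 10000, and no member was at or under 0.5, as 4.52% of genes were. Nr4a1 and Atf3 reached that minimum only in fibrosis, so they could pass it only by being higher there, and the 3.71% does not judge Nr4a1. Counted per cell, 6 members were at or over 2 times (Nr4a1 at 4.76, Ier2 2.76, Atf3 2.74, Junb 2.54, Zfp36 2.501 and Ier3 2.13), against 26.4% of the same genes. Per 10000 UMIs, Ier2 went from 2.26 to 3.999 (1.77), Atf3 from 0.685 to 1.20 (1.75), Junb from 12.3 to 19.999 (1.62), Zfp36 from 8.80 to 14.1 (1.60), Ier3 from 1.55 to 2.11 (1.36) and Fos from 7.83 to 9.96 (1.27). Fosb (4.50 and 4.88, ratio 1.08), Egr1 (8.37 and 8.08, 0.966) and Jun (12.9 and 12.0, 0.927) lay close to 1, and Fosb changed side under a mitochondrial limit of 5% (0.930) and Jun and Egr1 when counted per cell (1.45 and 1.51). The counting interval lay over 1 for 8 members and under 1 for 2, against 52.3% and 28.3% of all genes. The median ratio of the 10 was 1.48, and that of all genes 1.09, a shift of 0.12 on the log2 scale. Mean UMIs per LSEC-like cell were 1.56 times higher in fibrosis, so per cell the summed ratio was 2.03, whereas under the 5% mitochondrial limit it was 1.07.

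The difference in the summed LSEC-like level was smaller than the spread among sub-clusters within a library. The 8 sub-clusters of normal LSEC-like cells ran from 13.9 (12.7 to 15.1) to 81.1 (78.7 to 83.6) UMIs per 10000, and the 6 in fibrosis from 50.6 to 91.7. The lowest normal sub-cluster held 125 cells with a median of 2731 UMIs, and the next lowest, a pericentral one, held 38.2. LSECs are ordered along the lobule from portal to central vein. Periportal LSEC-like cells held 64.5 UMIs per 10000 in normal and 81.2 in fibrosis (ratio 1.26, 1.24 to 1.28), and pericentral ones 57.7 and 91.7 (1.59, 1.56 to 1.63). The 2 pericentral sub-clusters of normal liver held 67.7 and 38.2.

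**Figure D2:**
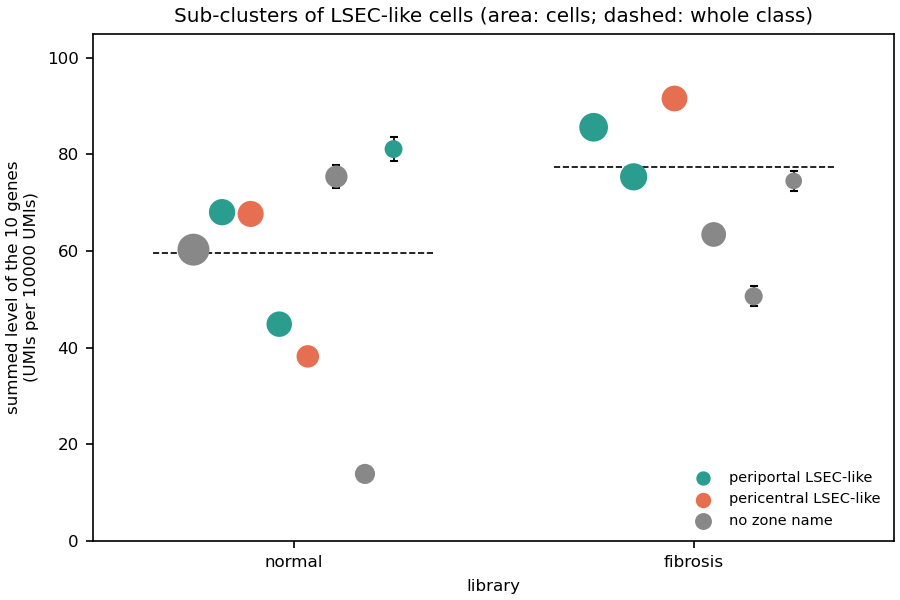
Summed level of the 10 genes (y axis, UMIs per 10000 UMIs) in each sub-cluster of LSEC-like cells, by library (x axis). Point area is the number of cells, colour the zone name, bars the exact 95% Poisson interval (hidden where smaller than the point) and dashed lines the whole class (59.6 and 77.4). Normal sub-clusters spread from 13.9 to 81.1 and fibrosis ones from 50.6 to 91.7.

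After each cell was thinned to 1000 UMIs, Fos was found in 43.2% (40.7 to 45.8) of normal and 58.4% (55.5 to 61.4) of fibrosis LSEC-like cells, against 79.9% and 96.7% unthinned. Nr4a1 was found in 4.30% and 13.3% after thinning (16.9% and 55.2% before). Erythroid-like cells of the normal library, which should make little of either (median 3437 UMIs against 5278.5 in LSEC-like cells), gave 12.0% for Fos and 2.21% for Nr4a1, with intervals for Nr4a1 of 3.34 to 5.43 in normal LSEC-like and 1.02 to 4.16 in erythroid-like cells. The fibrosis library had no erythroid-like class to serve as the same measure. LSEC-like cells without any of the 10 made up 8.46% (7.12 to 9.97) in normal and 1.36% in fibrosis, and cells with 5 or more made up 28.3% and 46.0%. Some members were found more often in LSEC-like cells with Fos than in those without, but not all: Nr4a1 was at 4.82% and 3.90% in normal and 12.9% and 13.9% in fibrosis, with overlapping intervals. In fibrosis T-cell-like cells Egr1 was at 25.5% with Fos and 32.2% without, and Jun at 33.7% and 40.5%, also with overlapping intervals. Egr1 was found in 53.3% of normal LSEC-like cells with Fos and 30.4% of those without, and in 51.3% and 41.4% in fibrosis. Junb gave 69.7% and 52.0% in normal, and 85.9% and 76.7% in fibrosis.

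**Figure D3:**
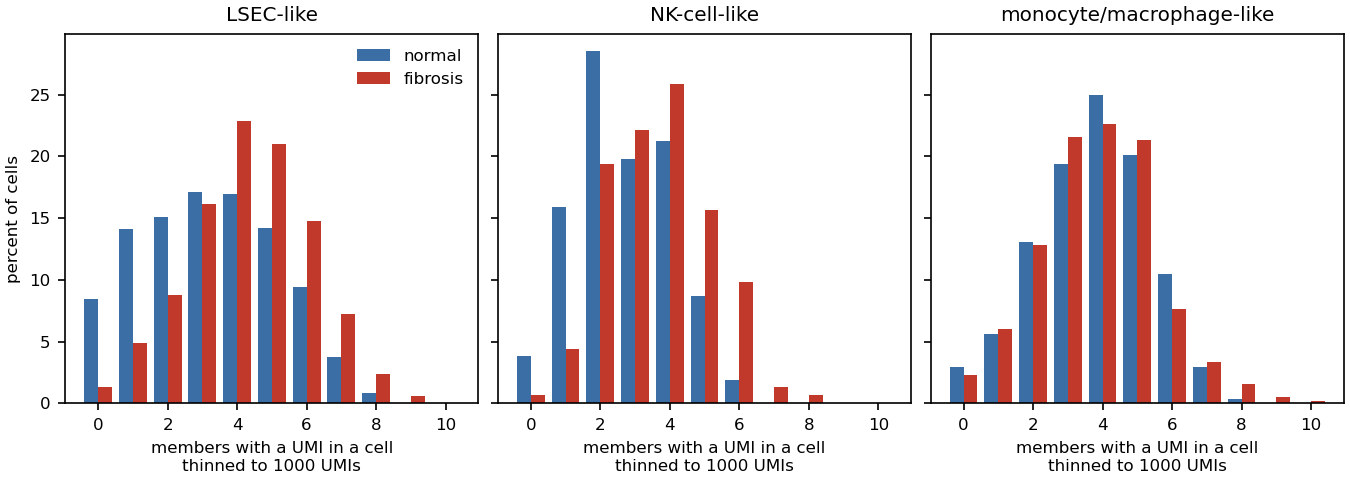
Percent of cells (y axis) by how many of the 10 genes had a UMI after thinning to 1000 UMIs (x axis), for LSEC-like, NK-cell-like and monocyte/macrophage-like cells of the normal (blue) and fibrosis (red) library. In LSEC-like cells, 28.3% of normal and 46.0% of fibrosis cells had 5 or more, and in monocyte/macrophage-like cells 34.0% and 34.7%.

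Across the 17 classes, the summed level was higher in fibrosis in 14 and lower in 3, in each case with a counting interval on that side of 1, and the geometric mean of the ratios was 1.18. The median ratio of all genes was itself over 1 in every class but monocyte/macrophage-like cells (0.980). It was 1.16 in B-cell-like, 1.17 in T-cell-like, 1.18 in NK-cell-like, 1.10 in Kupffer-cell-like, 1.11 in central-vein endothelial-like and 1.22 in neutrophil-like cells, near or above the summed ratio there. In PF-like and mesothelial-like cells it was 1.08 and 1.06, below the summed ratio. Counted per cell in place of per 10000 UMIs, 7 of the 17 were lower, as UMIs per cell in fibrosis were between 0.324 (plasma-cell-like) and 2.18 times (monocyte/macrophage-like) those in normal liver. Besides LSEC-like cells, portal-vessel and central-vein endothelium were at 1.12 each, Kupffer-cell-like at 1.11 (40.4 and 45.0), T-cell-like at 1.17 (53.5 and 62.5), NK-cell-like at 1.19 (46.3 and 55.1) and B-cell-like at 1.15 (60.1 and 69.1). Per cell, portal-vessel (0.928), NK-cell-like (0.821) and B-cell-like cells (0.811) were lower. Central-vein (1.71), Kupffer-cell-like (1.88) and T-cell-like cells (1.01) were higher per cell. Stellate cells and myofibroblasts (HSC/MF-like), the matrix-producing cells of fibrosis, were at 1.05 (55.5 and 58.4). Among the classes with few cells, portal fibroblasts (PF-like, 44 and 82 cells) were at 1.503 (37.9 and 57.0) and mesothelial-like cells (44 and 48) at 1.97 (43.4 and 85.4), with all 10 members higher and 5 at or over 2 times, against 11.6% of genes. Within PF-like cells the 12 markers of the class were at 104.9 in normal and 43.1 in fibrosis, HSC/MF markers at 313 and 424, erythroid markers at 66.8 and 0.419 and cycling markers at 0.787 and 3.61 UMIs per 10000. Within mesothelial-like cells the 10 markers of the class were at 226 and 119 UMIs per 10000, Kupffer cell markers at 2.51 and 21.8, cycling markers at 0.969 and 7.93 and neutrophil markers at 0.377 and 2.82, and the part of these in the differences was not tested.

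Read gene by gene, the counting intervals were narrow for all genes, so each count of members is given beside the percentage of all genes in that class. The percentages are over genes that reached 1 UMI per 10000 in a library, whereas the counts cover all 10 members, so the 2 are not over genes of like abundance. Atf3 lay under that minimum in B-cell-like, T-cell-like, NK-cell-like, plasma-cell-like, pDC-like, HSC/MF-like and PF-like cells, Ier3 in the first 4 of these and in cDC1-like and hepatocyte-like cells, and Nr4a1 in HSC/MF-like, PF-like, central-vein endothelial-like, cholangiocyte-like and hepatocyte-like cells. Intervals over 1 were found for 7 members in portal-vessel (35.1% of genes) and 6 in central-vein endothelial-like cells (41.4%), 5 in cholangiocyte-like (35.1%), 3 in hepatocyte-like (65.5%), 10 in mesothelial-like (31.1%), 6 in PF-like (30.6%) and 4 in HSC/MF-like cells (27.6%). In myeloid classes they were found for 6 members in Kupffer-cell-like (41.9%), 2 in monocyte/macrophage-like (37.9%), 4 in neutrophil-like (38.6%), 4 in cDC1-like (31.4%) and 9 in pDC-like cells (38.2%). In lymphoid classes they were found for 7 in T-cell-like (42.8%), 8 in NK-cell-like (40.2%), 7 in B-cell-like (44.5%) and 9 in plasma-cell-like cells (35.8%). Hepatocyte-like and monocyte/macrophage-like cells stood below the share of all genes. The pDC-like count includes the fibrosis sub-cluster with endothelial markers, without which the intervals of Fos (0.968 to 1.36) and Fosb (0.647 to 1.04) held 1, and the plasma-cell-like count is per 10000 UMIs, its sum being lower per cell (0.663).

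Intervals under 1 were found for 2 members in portal-vessel endothelial-like (22.7% of genes), 1 in central-vein endothelial-like (24.0%), 3 in cholangiocyte-like (24.6%), 6 in hepatocyte-like (23.7%), 0 in mesothelial-like (25.6%), 0 in PF-like (25.6%) and 2 in HSC/MF-like cells (25.0%). Among leukocytes they were found for 1 in Kupffer-cell-like (24.3%), 6 in monocyte/macrophage-like (40.9%), 2 in neutrophil-like (19.9%), 2 in cDC1-like (18.1%), 1 in pDC-like (30.5%), 1 in T-cell-like (21.3%), 1 in NK-cell-like (21.7%), 1 in B-cell-like (23.4%) and 0 in plasma-cell-like cells (27.1%).

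**Figure D4:**
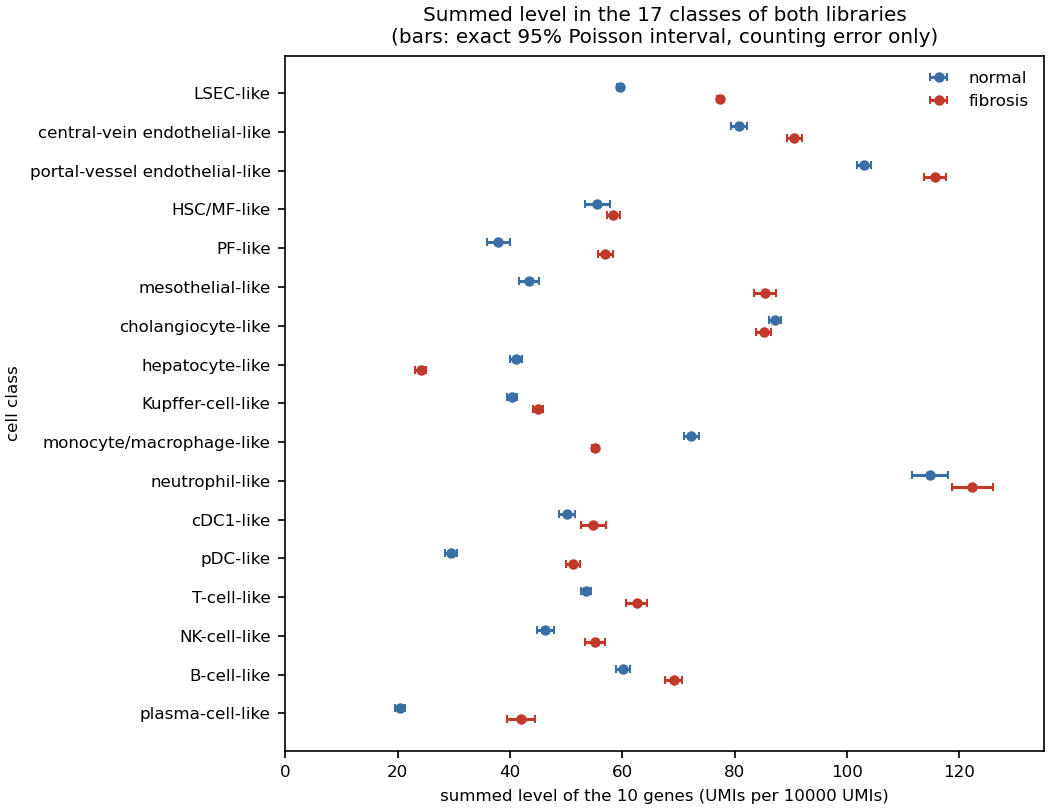
Summed level of the 10 genes (x axis, UMIs per 10000 UMIs) in the 17 classes (y axis), normal in blue and fibrosis in red, with exact 95% Poisson intervals for counting error only. Fibrosis lies to the right of normal in 14 classes and to the left in cholangiocyte-like, hepatocyte-like and monocyte/macrophage-like cells.

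The 3 lower classes per 10000 UMIs were cholangiocyte-like (87.2 and 85.2, ratio 0.977), monocyte/macrophage-like (72.3 and 55.2, 0.764) and hepatocyte-like cells (41.1 and 24.1, 0.587), of which the first and second were higher per cell (1.47 and 1.67) and the third was lower (0.396). In monocyte/macrophage-like cells, Nr4a1 was 4.93 and 1.63 (0.331, 0.302 to 0.362), Ier2 3.78 and 1.495 (0.395), Zfp36 16.0 and 11.1 (0.693) and Junb 16.2 and 11.6 (0.718), whereas Fos was 11.5 and 12.3 (1.06). Nr4a1 and Ier2 were under 0.5, as 13.5% of all genes in this class were. Per cell, Nr4a1 (0.722) and Ier2 (0.863) were also lower, and Junb was higher (1.57). The fibrosis class was uneven: its largest sub-cluster (239 cells, median 9516 UMIs) held a sum of 73.8, and a sub-cluster of 198 cells with a median of 18783 UMIs held 43.1. Kupffer cell markers in the class were at 32.8 in normal and 94.2 in fibrosis and the cholangiocyte list at 2.74 and 24.8, and their part was not tested. The class does not hold the same cells in both libraries, since patrolling-monocyte-like and cDC2-like cells were named in fibrosis only. With the 3 classes pooled the sum was 0.818 (0.802 to 0.835), Nr4a1 0.504 and Ier2 0.519. Hepatocyte-like cells, of which few remain after depletion, had Egr1 at 0.382, Jun at 0.402 and Ier2 at 0.402, beside a median ratio of 1.80 over all genes. Within this class hepatocyte markers were at 1994 and 742 UMIs per 10000, cycling markers at 0.436 and 16.2, erythroid markers at 3.14 and 21.8, Kupffer cell markers at 5.30 and 17.4 and B cell markers at 0.530 and 3.65, and their part was not tested.

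Per 10000 UMIs, Jun was the member with the most classes lower in fibrosis. Its interval lay under 1 in 11 of 17 classes and its ratio was below the median ratio of all genes in 13, but counted per cell Jun and Ier2 were each below 1 in 8 classes and Fosb in 7. It was 9.41 and 5.89 in T-cell-like (0.626), 9.87 and 5.596 in NK-cell-like (0.567), 9.18 and 3.41 in cDC1-like (0.371, 0.309 to 0.444) and 18.4 and 12.9 in central-vein endothelial-like cells (0.701), although per cell the last was slightly higher (1.07). Higher Jun in fibrosis was found in neutrophil-like (1.49), PF-like (1.46) and mesothelial-like cells (2.09). Per 10000 UMIs, for the other 9 members, between 1 and 4 classes had an interval under 1. Nr4a1 was higher in 14 classes and Zfp36, whose product promotes decay of AU-rich mRNAs, in 13, with geometric means of 2.01 and 1.42. Their ratios were below the median ratio of all genes in 3 and 4 classes. The median class ratio of Nr4a1 was 1.82, and its largest, 14.2 in plasma-cell-like cells, rested on 11 and 37 UMIs. In the shallow droplets Nr4a1 was at 3.24 and Zfp36 at 2.41, and the part of transcripts from other cells was not tested. For 7 of the 10 the lowest class ratio was lower by at least 1.5 times and the highest was higher by at least 1.5 times, with intervals on opposite sides of 1, as held for 25.9% of 5977 genes.

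**Figure D5:**
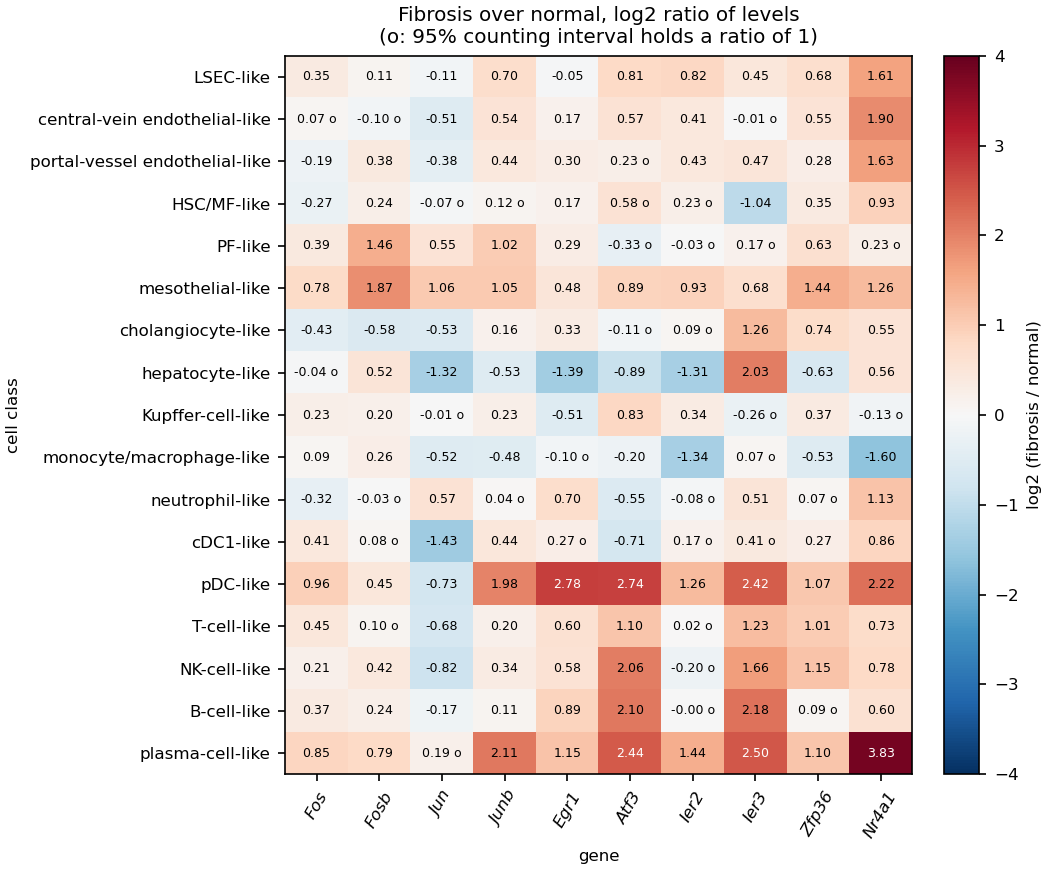
Log2 ratio of the level in fibrosis over normal for each gene (columns) and class (rows), with red higher and blue lower in fibrosis; an o marks a 95% counting interval that holds a ratio of 1. The Jun column is mostly blue, from -1.43 in cDC1-like cells to 1.06 in mesothelial-like cells, and the Nr4a1 column is mostly red.

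Several of the larger ratios sat in classes where the gene was scarce in normal liver. Atf3 was 0.168 and 0.721 in B-cell-like (4.29, 2.68 to 7.14) and 0.223 and 0.926 in NK-cell-like cells (4.16), and Ier3 was 0.204 and 0.929 (4.54) and 0.223 and 0.705 (3.16). In the same classes the 18 endothelial markers, which these cells should not make, were 2.08 and 1.75 times higher in fibrosis, and the 20 stellate cell markers 10.3 and 10.5 times. Both Atf3 and Ier3 were more abundant in the shallow droplets of fibrosis (1.31 and 1.91 UMIs per 10000) than in those of normal liver (0.382 and 0.770). The part of transcripts from other cells in these differences was not tested.

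In pDC-like cells, 7 of the 10 were at or over 2 times (background 17.9% of genes), and the summed level was 29.6 and 51.2 (1.73). Endothelial markers in this class were 13.9 and 103 UMIs per 10000. Without the fibrosis sub-cluster that carried them, the sum was 29.6 and 32.7 (1.11, 1.04 to 1.17), Egr1 was at 1.999 in place of 6.85, and Fos at 1.15. Junb (2.77), Atf3 (3.44), Ier3 (2.61) and Nr4a1 (4.45) were then over 2 times, against 7.58% of the genes reaching 1 UMI per 10000 in these cells, a minimum that Atf3 (0.123 and 0.424) and Ier3 (0.237 and 0.619) did not reach. Jun was lower (0.331, 0.288 to 0.380). In plasma-cell-like cells, 7 of 10 were also at or over 2 times (background 21.3%), and the sum was 20.4 and 41.9. Counted per cell the plasma-cell-like sum was lower in fibrosis (0.663) and Nr4a1 alone (4.60) was at or over 2 times, as 5.34% of genes were, and Kupffer cell markers in the class were at 2.31 and 20.5 UMIs per 10000.

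Levels were also read against mitochondrial share and depth, with the cells of each class split into 3 equal bins by either measure. The bin with the highest mitochondrial share had a higher summed level than the bin with the lowest in 4 of 17 normal and 6 of 17 fibrosis classes, and LSEC-like cells went from 70.8 to 50.5 UMIs per 10000 in normal and from 84.6 to 72.2 in fibrosis. By UMIs per cell, the deepest bin was higher than the shallowest in 7 and 6 classes, and normal LSEC-like cells went from 53.7 to 61.4 while fibrosis ones went from 79.7 to 72.5. In most classes the highest bin of either measure thus held less of these transcripts than the lowest. The 12 heat shock genes, which also respond to handling, summed to 37.8 and 62.6 UMIs per 10000 in LSEC-like cells, a ratio of 1.65. Within that list Hsph1 was at 3.92 and Hsp90aa1 at 2.59, while the inducible Hspa1a and Hspa1b were lower, at 0.505 and 0.592. Heat shock levels were lower in fibrosis in T-cell-like (82.9 and 66.7) and NK-cell-like cells (72.7 and 59.4), where the 10 genes were higher per 10000 UMIs. Across the 17 classes of a library, which share its free RNA, the summed heat shock and immediate early levels had r = 0.142 in normal and -0.020 in fibrosis.

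Of 50 other early response genes, 30 passed the minimum in LSEC-like cells. The whole list summed to 102 UMIs per 10000 in normal and 156 in fibrosis, a ratio of 1.53. A gene passed if either library reached the minimum, so Cxcl2, Myc, Tnfaip3, Csrnp1, Dusp5, Cxcl1 and Fosl2, which passed only through fibrosis, had to be higher there, and Errfi1, which passed only through normal, had to be lower. The largest ratios were those of Cxcl2, a neutrophil chemokine (0.104 and 1.02, 9.81), the growth regulator Myc (0.162 and 1.03, 6.35), the NF-κB inhibitors Tnfaip3 (0.377 and 1.94, 5.14) and Nfkbia (4.18 and 11.8, 2.82), and the kinase Sgk1 (12.1 and 30.5, 2.53). The smallest were Errfi1, a feedback inhibitor of the EGF receptor (1.58 and 0.245, 0.154), Gadd45g (0.721), Btg2 (0.794), Plk2 (0.842) and Zfp36l1, a relative of Zfp36 (0.910). The summed level of this list was higher in fibrosis in 15 of 17 classes, the exceptions being hepatocyte-like and monocyte/macrophage-like cells (0.902 and 0.934). The 12 housekeeping genes gave a sum ratio of 1.16 in LSEC-like cells.

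The mean log2 level of the 10 over 37 class profiles (all named classes with at least 30 cells, both libraries) was compared with 5996 genes. The 10 genes most like it were Nfkbiz (r = 0.840), Kdm6b (0.807), Tnrc18 (0.806), Nfe2l2 (0.802), Dctn4 (0.794), Samd4b (0.789), Mfsd14b (0.775), Osbpl9 (0.775), Dusp1 (0.773) and Ddx3x (0.772). Of 43 other early response genes compared, 6 were among the first 50, including Nfkbiz and Dusp1. Of 12 heat shock genes 0 were, which is near what 50 of 5996 genes would give. These profiles share libraries and depth, and the values are a description.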

How the data were processed

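Gene expression in liver NPCs was measured by 10x Chromium 3′ scRNA-seq in 1 normal and 1 fibrosis mouse. Per the labels, the authors processed the reads with Cell Ranger 3.0.1 and mm10, and deposited unnormalized UMI counts per gene and cell, tested here to be whole numbers. Groups follow the labels. The study's own limits were used to keep cells: mitochondrial UMIs under 10% and more than 200 genes.

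Analysis used Python 3.11.15 with scanpy 1.11.5, leidenalg 0.10.2, scipy 1.17.1, numpy 2.4.6, pandas 2.3.3 and matplotlib 3.10.9. Each library was clustered separately (2000 variable genes, 10 principal components, 20 neighbours, Leiden resolution 0.8, then again within lineages), with the 10 genes, 50 other early response genes and 12 heat shock genes held out. A cluster took the class with most fixed markers among its 10 genes of highest fold, with at least 3 markers raised. This scoring rule was chosen after clusters had been seen, so shares and classes rest on rebuilt names. Clusters that this rule named for another lineage, and cycling or shallow clusters, were left out of the classes. The fibrosis pDC-like and neutrophil-like sub-clusters with endothelial markers were not named so, and stayed in the main values. Doublets were not removed: Scrublet called 3 normal and 0 fibrosis cells, the study's methods state that doublets were excluded with the same tool, whether before deposit was not tested, and the 5% highest scores were removed as an alternative.

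Levels are UMIs per 10000 UMIs of a class with exact Poisson intervals, ratios have exact conditional intervals, and shares exact Clopper-Pearson intervals after thinning to 1000 UMIs, all at 95% and for counting error only. With 1 library per condition no test was made. The background was all genes reaching 1 UMI per 10000 on either side of a comparison. Correlations used log2(level + 0.1). Named genes are the 10 in every class, the 5 largest and 5 smallest LSEC-like ratios of the other early response list, and the 10 genes with the most similar profile. The genes and lists were chosen with earlier results of these data known. Ratios and intervals were tested on simulated Poisson counts, the model the intervals assume, so this does not cover unevenness between cells. Gene models are GENCODE vM21 and promoters RefSeq.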

Additional observations from a re-analysis of the deposited data

Results flagged for a closer look

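For 7 of the 10 genes, the ratio of fibrosis over normal was lower by at least 1.5 times in one class and higher by at least 1.5 times in another, with counting intervals on opposite sides of 1. The same was so for 25.9% of the 5977 genes with at least 1 UMI per 10000 in any of the 17 classes, a share that depends on how many UMIs a gene has. The difference between the classes was not tested, since each ratio compares 2 mice. Jun was at 0.371 in cDC1-like and 2.09 in mesothelial-like cells. Egr1 was at 0.382 in hepatocyte-like and 6.85 in pDC-like cells. Atf3 was at 0.539 in hepatocyte-like and 6.66 in pDC-like cells. Ier2 was at 0.395 in monocyte/macrophage-like and 2.72 in plasma-cell-like cells, but per cell both were below 1 (0.863 and 0.879). Ier3 was at 0.487 in HSC/MF-like and 5.64 (1.72 to 19.7) in plasma-cell-like cells, the latter from 6 and 8 UMIs, and per cell the first was 0.825. Zfp36 was at 0.647 in hepatocyte-like and 2.72 in mesothelial-like cells. Nr4a1 was at 0.331 in monocyte/macrophage-like and 14.2 (7.11 to 30.9) in plasma-cell-like cells, the latter from 11 and 37 UMIs, and per cell the first was 0.722. In these classes Ier2, Ier3 and Nr4a1 were thus lower by less than 1.5 times per cell.

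Median UMIs per cell differed more than 3 times between the libraries in hepatocyte-like and plasma-cell-like cells, the pDC-like values include the fibrosis sub-cluster with endothelial markers (without it, Egr1 was at 1.999 and Atf3 at 3.44), and the monocyte/macrophage-like class lacks in fibrosis the patrolling-monocyte-like cells that were named apart. The part of each in the ratios was not tested.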

How the results depend on the processing

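The summed ratio in LSEC-like cells was above 1 in all 11 alternatives tried (1.07 to 2.03), as was that of Kupffer-cell-like cells (1.08 to 1.88), and the geometric mean over classes in all 14 (1.12 to 1.34). In B-cell-like cells the summed ratio was above 1 in 8 of 9. The median ratio of all genes in the main setting was also above 1, at 1.09 in LSEC-like, 1.10 in Kupffer-cell-like and 1.16 in B-cell-like cells. The 12 housekeeping genes summed to a ratio of 1.16 in LSEC-like cells. A ratio above 1 therefore does not set these genes apart, and the lowest LSEC-like alternative, 1.07, was under both LSEC-like values.

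With a mitochondrial limit of 5%, the summed ratio was 1.07 in LSEC-like and 1.32 in Kupffer-cell-like cells, 9 classes in place of 17 were shared, over which the geometric mean was 1.34 and 1 class was lower, and Fosb was at 0.930 in LSEC-like cells; B-cell-like cells gave no value. At a Leiden resolution of 0.4, LSEC-like cells were at 1.27, B-cell-like cells at 1.19 and the geometric mean at 1.12, and at 1.5 LSEC-like cells were at 1.26, Kupffer-cell-like cells at 1.20 and the geometric mean at 1.12. Without holding out early response and heat shock genes, LSEC-like cells were at 1.28 and Kupffer-cell-like cells at 1.08. Counted as UMIs per cell, the ratio was 2.03 in LSEC-like, 1.88 in Kupffer-cell-like and 0.811 in B-cell-like cells, the geometric mean was 1.28, 6 classes had an interval under 1, 6 members were at or over 2 times in LSEC-like cells (as were 26.4% of all genes), and Jun (1.45) and Egr1 (1.51) were above 1; depth per cell enters this measure directly. With cells thinned to 1000 UMIs, LSEC-like cells were at 1.37, Kupffer-cell-like cells at 1.20, the geometric mean at 1.24 and Egr1 in LSEC-like cells at 1.03. Without the 3 cells of each class with most UMIs of the 10 genes, the geometric mean was 1.20. Of alternatives chosen after seeing the data, cells with at least 5000 UMIs gave 1.26 in LSEC-like cells and a geometric mean of 1.15 (B-cell-like cells gave no value), and leaving out sub-clusters with endothelial markers gave a geometric mean of 1.15. The cause of the other shifts was not tested.

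No paired analysis was possible because each condition has 1 library. With 1 mouse per condition, the spread between mice is unknown, and at this depth a gene under 1 UMI per 10000 rests on few UMIs in the smaller classes.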

Other observations

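Basophil-like cells were too few for a comparison (10 normal and 9 fibrosis cells) but held the highest summed level of any named class, 267 and 252 UMIs per 10000. Cycling cells, left out of the classes, held 40.8 and 51.5, and clusters with markers of more than one lineage 59.3 and 70.6. In fibrosis monocyte/macrophage-like cells the sum was 76.4 UMIs per 10000 in the shallowest of 3 equal bins of cells and 43.2 in the deepest, while in normal liver these bins held 73.5 and 68.5.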
